A study of Homo sapiens with 6 samples.

Results

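Hairpins against 10 DNA repair genes were followed through a screen of chromatin regulators under azacitidine: ERCC2, ERCC3, ERCC5, ERCC6 and ERCC6L2 from excision repair and its relatives, MSH6 and MLH3 from mismatch repair, and MGMT, ALKBH2 and ALKBH3 from the repair of alkylated bases. They were taken by gene symbol, and 80 hairpins target them, 8 per gene, out of 7293 hairpins against 912 genes with a count in any library. SKK-1 is an established cell line from an acute myeloid leukemia that arose from a myelodysplastic syndrome. Its cells were transduced with the Epi9 pool of short hairpin RNAs (shRNAs, hairpins here) in 3 cultures and selected with puromycin, so that both groups carry the pool. Each culture was divided into an untreated part (0 µM) and a part given 0.25 µM azacitidine (AZA) every 2 days, and the cells were harvested for genomic DNA on day 14. Replicates 1, 2 and 3 of both groups are therefore pairs. The count of a hairpin thus stands for the cells that still held it at the end, and neither the knockdown by each hairpin nor the pool before treatment was analysed here. As the counts are of integrated hairpins, the identity of the cells could not be checked against marker genes.

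These repair systems answer different kinds of DNA damage. In nucleotide excision repair, bulky lesions are found across the genome or where they stall RNA polymerase, the TFIIH complex opens the strands, and nucleases cut out the damaged piece. In mismatch repair, a MutS complex recognises a wrongly paired base and a MutL complex cuts the new strand. Alkylated bases are restored directly, by transfer of the alkyl group to MGMT or by oxidation through the iron-dependent AlkB dioxygenases. AZA is a cytidine analogue that enters RNA and DNA, where it traps DNA methyltransferases on the strand. In a myeloid setting, ERCC6L2 is known as a gene whose inherited loss causes bone marrow failure and leukemia. MGMT is silenced by promoter methylation in some tumours, and whether it is in SKK-1 was not examined here.

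A hairpin acts through its guide, the strand of 22 bases that pairs with the messenger RNA. Guides were at hand for ALKBH2 and ALKBH3, 16 in all, and those shown here overlap each other on the transcript or had the most negative fold changes of their gene, so that they can be set beside the counts given further on. Capitals mark the seed, bases 2 to 8, and T stands for U.
ALKBH2.604: tCATTAGTaagctcccgtgggc
ALKBH2.607: tCATCATTagtaagctcccgtg
ALKBH2.608: tTCATCATtagtaagctcccgt
ALKBH2.109: tATCACTGcaacacgtccgtgg
ALKBH2.707: tTAGTAAGcaaaattttacgaa
ALKBH3.592: tTGAACACaaactctctgtcag
ALKBH3.595: tCTTTGAAcacaaactctctgt
ALKBH3.1218: tAGAGTGGtattctttgggcac
ALKBH3.1220: tCTAGAGTggtattctttgggc
ALKBH3.1349: tTGAAGTGgcttctcagtggaa

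All 16 guides had a perfect site in the canonical GENCODE release 44 transcript of their gene and 0 had one in a transcript of another gene, and the 16 seeds were all different. In ALKBH2 (GRCh38 chr12:109088188-109093631, minus strand), the sites of ALKBH2.604, ALKBH2.607 and ALKBH2.608 start within 4 bases of each other in the coding part of exon 4, at chr12:109088316-109088337, chr12:109088313-109088334 and chr12:109088312-109088333, and share 18 to 21 bases by pair. ALKBH2.707 also lies in the coding part of exon 4, at chr12:109088213-109088234, and ALKBH2.109 in the 5′ UTR within exon 1, at chr12:109093362-109093383. In ALKBH3 (GRCh38 chr11:43880811-43920274, plus strand), ALKBH3.592 and ALKBH3.595 share 19 bases of coding exon 3, at chr11:43883154-43883175 and chr11:43883157-43883178. ALKBH3.1218 and ALKBH3.1220 share 20 bases of the coding part of exon 10, at chr11:43919924-43919945 and chr11:43919926-43919947, and ALKBH3.1349 lies in the 3′ UTR part of the same exon, at chr11:43920055-43920076. Overlapping guides with different seeds read nearly the same stretch of message, so their counts are compared pair by pair below.

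None of the 10 genes and none of their 80 hairpins differed between AZA-treated and untreated cells after correction over the whole pool. The most negative fold changes were those of hairpins against ERCC6, and the most positive was that of a single hairpin against ERCC6L2. The libraries held 12292575 to 22587662 counts, and these 80 hairpins took 0.934% to 1.04% of each. The median count of a member hairpin was 1193.5 to 2271 per library and none was at 0. All 80 passed the filter on low counts, which asked for more than 0.5 CPM in 3 or more libraries. In the edgeR quasi-likelihood test across 7262 hairpins 0 of the 80 passed an adjusted p of 0.05 (lowest adjusted p = 0.772), where 5 hairpins of the pool, or 0.0689%, passed. At an unadjusted p under 0.05, 1 member hairpin was higher under AZA and 2 were lower, while 1.9% of all hairpins were higher and 3.72% lower at that level. The edgeR exact test and the DESeq2 Wald test on the same counts called 0 of the 80 as well. At an unadjusted p under 0.05 they had 3 and 6 of the 80, beside 405 and 835 of all 7262 hairpins.

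The share of member hairpins that went one way in all replicate pairs was no larger than that of the pool. TMM was the scaling of the main edgeR fits. After it, 10 of the 80 hairpins (12.5%) were lower under AZA in 3 of 3 pairs, against 14.8% of all hairpins. Another 3 (3.75%) were higher in 3 of 3 pairs, against 14.4%. In 3 hairpins all AZA libraries were below all untreated ones (6.6% of all hairpins) and in 3 all AZA libraries were above (6.62%), which leaves 74 whose groups overlapped. The first 3 all target ERCC6, and the others target ERCC2, ERCC6L2 and MSH6. With library totals in place of TMM, the pool's median hairpin went from -0.096 to 0.067 on the log2 scale, and 6 member hairpins were lower and 9 higher in 3 of 3 pairs, 7.5% and 11.25% of the 80 against 10.7% and 19.0% of the pool. The separation of the groups also depended on the scaling: on library totals 7 member hairpins (8.75%) had all AZA libraries above, against 9.17% of the pool, and 2 (2.5%) had all below, against 4.31%. Those above were ERCC2.254, ERCC5.3652, ERCC6L2.1697, ERCC6L2.3922 and 3 against MSH6 (MSH6.928, MSH6.2740 and MSH6.3220), and those below were ERCC6.1009 and ERCC6.1952. Unless another scaling is named, fold changes that follow compare AZA with untreated libraries in log2 units after TMM scaling, with the standard error. Counts per 1000000 (CPM) are on the total of each library. The median log2 fold change was -0.07 over the 80 hairpins, 42 of them negative, and the hairpins ranged from -1.54 to 1.97.

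**Figure D1:**
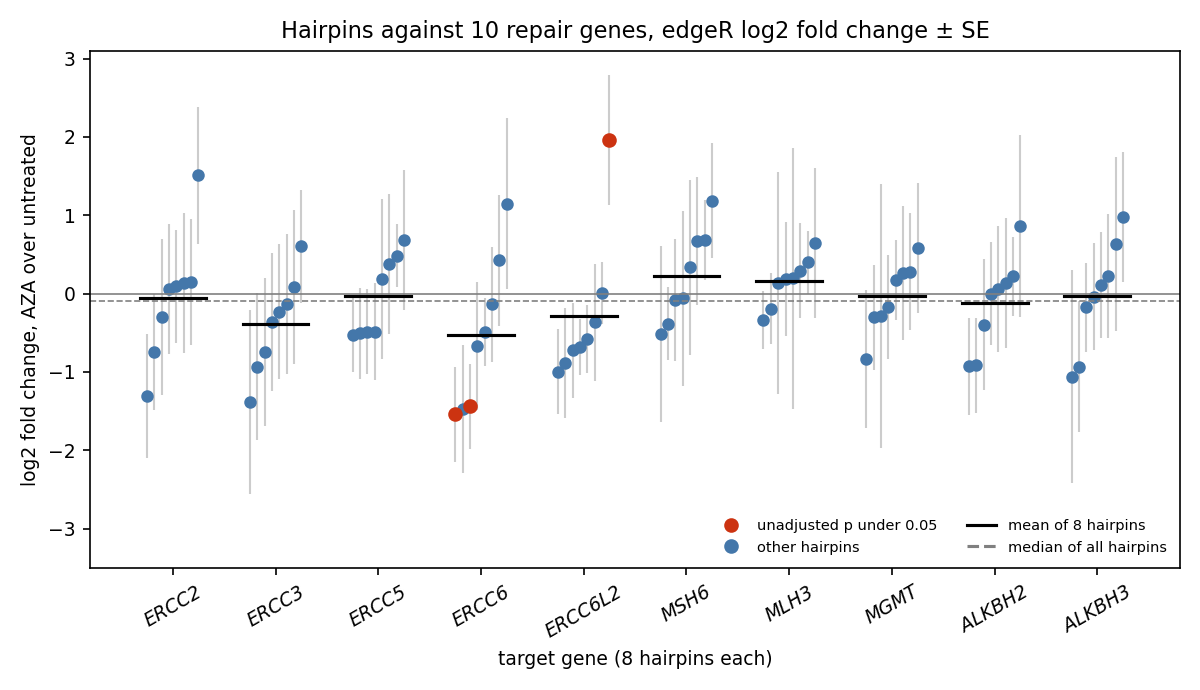
Log2 fold change, AZA over untreated, of each of the 80 hairpins (points, with the edgeR standard error as grey bars), by target gene. Black lines are the mean over 8 hairpins and the dashed line is the median of all hairpins tested (-0.096). The 3 red points, of ERCC6 and ERCC6L2, have an unadjusted p under 0.05, and hairpins of every gene lie on both sides of 0.

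For the gene level, the log2 CPM of a gene's 8 hairpins was averaged in each library and the groups were compared with limma across all 912 genes. Of these 11, or 1.21%, passed an adjusted p of 0.05, and 20 did so with the replicate number as a block. Of the 10 repair genes 0 passed (adjusted p = 0.390 to 0.921) and 0 had an unadjusted p under 0.05, at which 14.3% of all genes were higher and 0.658% lower. Under other settings some members did reach an unadjusted p under 0.05, MLH3 with the replicate block (with 152 genes of the pool at that level) and without untreated replicate 1 (179), MLH3 and MSH6 on library totals (209), ERCC6 and ERCC6L2 with summed counts (168) and ERCC6L2 without its farthest hairpin (110), and none passed after adjustment. In mean log2 CPM the pool as a whole was shifted upwards, with a median gene difference of 0.25, and the median of the 10 repair genes was 0.14. Values near zero in single untreated libraries accompanied this shift: 6.54% of all untreated values were under 5 CPM, against 1.43% under AZA. Among the members this applied to 7 of 240 untreated values, in ERCC5.2719, MLH3.3678, MLH3.644, MGMT.754, ALKBH2.608 and ALKBH3.1218, and to 0 of 240 AZA values. Their part in the shift of the pool was not tested.

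Hairpins against the TFIIH helicases showed no common direction. ERCC2, also called XPD (GRCh38 chr19:45349837-45370918, minus strand), encodes the helicase that opens DNA around a lesion. Its gene level was 5.79, 6.28 and 6.08 log2 CPM in untreated replicates 1, 2 and 3 and 6.31, 6.17 and 6.05 under AZA, a difference of 0.13 ± 0.26 (limma, SE; adjusted p = 0.860). The groups overlapped, 3 of 8 hairpins had negative fold changes, and the difference was 0.0019 to 0.25 with 1 library left out, lowest without untreated replicate 1. ERCC2.254 had 45.1, 11.9 and 54.5 CPM without drug and 191, 81.6 and 80.3 CPM under AZA. All of its AZA libraries were above its untreated ones, with a log2 fold change of 1.51 ± 0.88 (edgeR adjusted p = 0.949), or 0.97 without AZA replicate 1. At the other end, ERCC2.865 had 66.7, 254 and 61.4 CPM and 37.7, 71.8 and 65.2 CPM in the same order, a log2 fold change of -1.31 ± 0.79 (edgeR adjusted p = 0.957). That hairpin was lower in 3 of 3 pairs after TMM scaling, with pair 3 the other way on library totals, and 1 untreated library, replicate 2, held most of its untreated counts.

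ERCC3, or XPB (GRCh38 chr2:127257290-127294166, minus strand), the translocase of the same complex, had 6 of 8 hairpins with negative fold changes and a mean over hairpins of -0.39 ± 0.62 (SD). Its gene level was 6.67, 6.10 and 5.14 log2 CPM without drug and 6.37, 5.27 and 5.88 log2 CPM under AZA, which differed by -0.13 ± 0.44 (limma adjusted p = 0.921), or by 0.033 on library totals and 0.22 without untreated replicate 1. Here the libraries of each group spread more widely than the groups differed. The gene difference was -0.30, -0.83 and 0.74 in pairs 1, 2 and 3, so the third pair went the other way, and no hairpin of ERCC3 kept one direction in 3 of 3 pairs. The lowest, ERCC3.2123, had 52.6, 161 and 11.1 CPM without drug and 64.7, 19.1 and 13.8 CPM under AZA (-1.39 ± 1.17). The highest, ERCC3.241, had 194, 58.5 and 32.0 CPM and 194, 154 and 131 CPM (0.60 ± 0.72). The edgeR adjusted p were 0.991 and 0.997.

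ERCC5, or XPG (GRCh38 chr13:102845831-102875995, plus strand), is a nuclease that cuts the damaged strand, and its hairpins were divided evenly, 4 negative and 4 positive. The gene level was 6.61, 7.17 and 6.70 log2 CPM without drug and 7.25, 6.77 and 6.97 log2 CPM under AZA, a difference of 0.17 ± 0.28 with overlapping groups (limma adjusted p = 0.810). It was 0.045 to 0.35 with 1 library left out, lowest without AZA replicate 1. Its hairpins had the narrow range of -0.53 to 0.69, at ERCC5.3397 and ERCC5.1611. ERCC5.3397 had 147, 280.4 and 504 CPM without drug and 317, 162 and 245 CPM under AZA. ERCC5.1611 had 93.8, 49.6 and 14.9 CPM and 140.0, 53.7 and 90.1 CPM. ERCC5.2719 had 4.56 CPM in untreated replicate 1 and 76.7 to 98.3 CPM in the other two untreated libraries, so its values without drug spanned more than its values under AZA, 66.0 to 93.8 CPM.

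ERCC6 had the most negative gene difference of the 10. ERCC6, the CSB protein of Cockayne syndrome (GRCh38 chr10:49454168-49539538, minus strand), is the SNF2-family translocase that starts repair at a stalled RNA polymerase. Its gene level was 7.47, 6.47 and 6.64 log2 CPM without drug and 6.67, 6.25 and 6.22 log2 CPM under AZA. Each AZA library was below its own pair, by 0.80, 0.21 and 0.42, although the groups overlapped. How many genes of the pool were lower in 3 of 3 pairs was not counted. The difference was -0.48 ± 0.33 (limma, 95% interval -1.22 to 0.27, adjusted p = 0.521), at rank 31 of 912 genes from the lowest, and it was -0.17 without untreated replicate 1, where the level was highest.

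Of the 8 hairpins against ERCC6, 6 had negative fold changes, and 3 of these had no overlap between the groups after TMM scaling. ERCC6.1009 had 176, 152 and 254 CPM in untreated replicates 1, 2 and 3 and 47.4, 54.3 and 122 CPM in AZA replicates 1, 2 and 3 (-1.54 ± 0.61, edgeR adjusted p = 0.805, DESeq2 adjusted p = 0.118). Every AZA library was lower than every untreated one. ERCC6.1952 had 125, 50.8 and 116 CPM without drug and 40.3, 36.8 and 39.6 CPM under AZA (-1.47 ± 0.82, edgeR adjusted p = 0.931, DESeq2 adjusted p = 0.330). Its 3 AZA libraries lay close together. ERCC6.4135 had 715, 168 and 225 CPM without drug and 187, 168 and 97.6 CPM under AZA (-1.44 ± 0.54, edgeR adjusted p = 0.772, DESeq2 adjusted p = 0.101). On library totals, as these CPM are, untreated replicate 2 of this hairpin was not above AZA replicates 1 and 2, so that its separation depends on TMM scaling. With 1 library left out at a time, the fold changes ran from -2.10 to -1.30 for ERCC6.1009 and -1.77 to -1.27 for ERCC6.1952. For ERCC6.4135 they ran from -1.78 to -0.56, the last without untreated replicate 1, which held its highest value. In the opposite direction stood ERCC6.1924, with 68.8, 29.6 and 10.4 CPM without drug and 128, 13.4 and 126 CPM under AZA (1.15 ± 1.09). The SD over the 8 hairpins, 0.97 around a mean of -0.52, was the largest of the 10 genes.

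**Figure D2:**
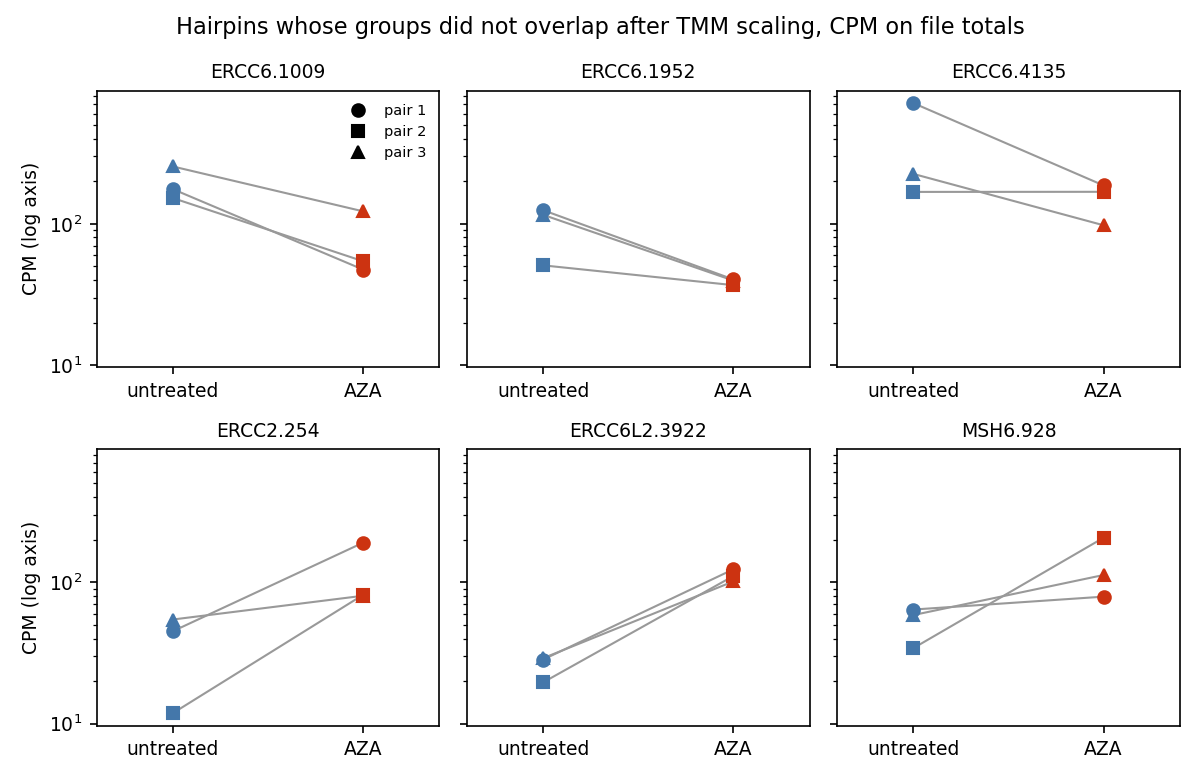
CPM on library totals (log axis) in untreated and AZA libraries for the 6 hairpins whose groups did not overlap after TMM scaling, with lines joining libraries of the same replicate number. The 3 hairpins against ERCC6 were lower in their pairs, except ERCC6.4135 in pair 2, where both libraries had 168 CPM. Those against ERCC2, ERCC6L2 and MSH6 were higher under AZA in every pair.

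ERCC6L2 combined the highest single hairpin with a negative gene difference. ERCC6L2 (GRCh38 chr9:95871264-96121154, plus strand) is a relative of ERCC6 with a SNF2-type motor. ERCC6L2.3922 had 28.4, 19.6 and 29.0 CPM in the untreated and 124, 111 and 102 CPM in the AZA libraries. The groups stood apart, with a log2 fold change of 1.97 ± 0.83 and pair values of 1.99, 2.30 and 1.64, yet the hairpin did not pass the correction (edgeR adjusted p = 0.848, DESeq2 adjusted p = 0.105). The other 7 hairpins had fold changes of -0.995 (ERCC6L2.2106) to 0.011 (ERCC6L2.1697), 6 of them negative. ERCC6L2.2106 had 240.5, 159.7 and 338 CPM without drug and 63.3, 124 and 227 CPM under AZA, lower in 3 of 3 pairs with overlapping groups. ERCC6L2.3977, the most abundant of the 8 without drug, had 478, 480.2 and 271 CPM and 255, 244 and 360.2 CPM (-0.68 ± 0.35).

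The untreated gene level of ERCC6L2, a mean over 8 hairpins, was nearly the same in all libraries, 7.37, 7.36 and 7.38 log2 CPM. Single hairpins, such as ERCC6L2.2106 and ERCC6L2.3977, varied more between these libraries. The AZA gene levels of 7.02, 7.05 and 7.26 log2 CPM were all below the untreated ones after TMM scaling. How many genes of the pool were separated in this way was not counted. The difference was -0.26 ± 0.24 (limma, 95% interval -0.80 to 0.28, adjusted p = 0.645), and on library totals it was -0.096. Without ERCC6L2.3922, the hairpin farthest from the mean, it was -0.58 (limma adjusted p = 0.400). With the counts of all hairpins of a gene summed before the test, ERCC6 had -0.70 and ERCC6L2 -0.50 (edgeR adjusted p = 0.126 and 0.114).

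**Figure D3:**
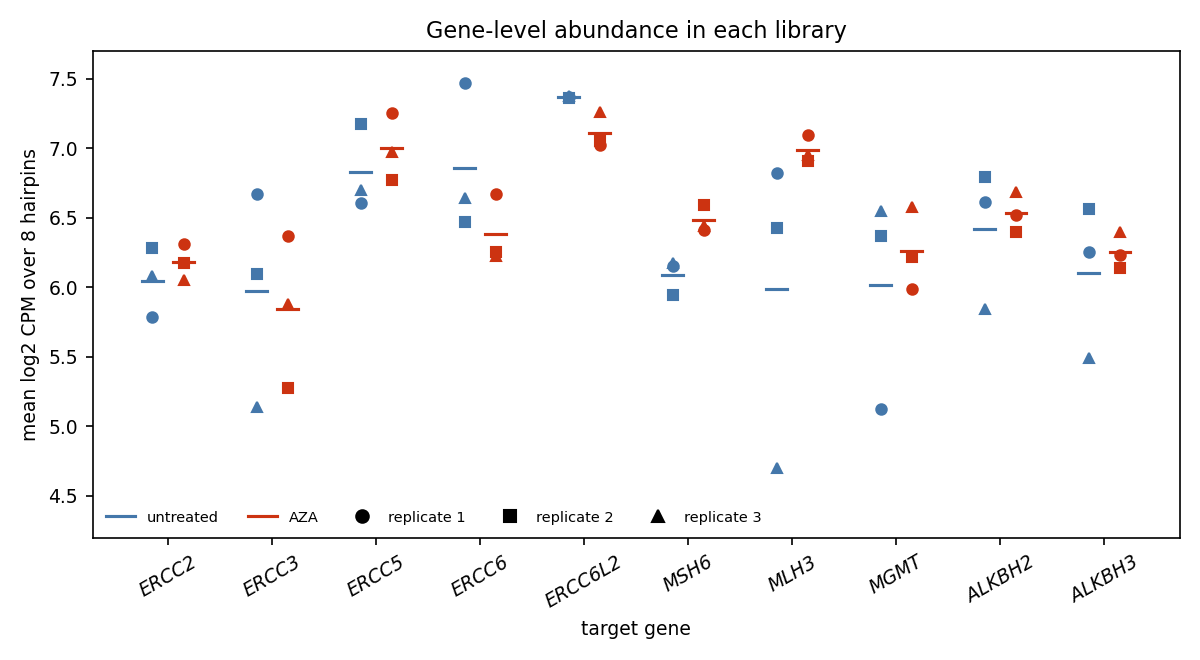
Mean log2 CPM over the 8 hairpins of each gene in every library (untreated blue, AZA red; symbols give the replicate number, lines the group mean). The AZA libraries were all below the untreated ones for ERCC6L2 and all above for MSH6 and MLH3, and MLH3 in untreated replicate 3 had the lowest value of all, 4.70. The share of all genes with such a separation was not counted.

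Both mismatch repair genes had a positive gene difference, as did 70.3% of all genes, and neither passed the correction. Their gene levels were higher in all AZA libraries than in any untreated one. How many genes of the pool were separated in this way was not counted, so the separation cannot be called particular to these genes. MSH6 (GRCh38 chr2:47695530-47810063, plus strand) is the MutS subunit that contacts a mismatched base. Its gene level was 6.15, 5.94 and 6.17 log2 CPM without drug and 6.41, 6.59 and 6.44 log2 CPM under AZA, a difference of 0.39 ± 0.24 (limma, 95% interval -0.15 to 0.94, adjusted p = 0.464). Set against the median difference of all genes, 0.25, this leaves 0.17 when each library is centred on its median gene, an alternative chosen after the data were seen. The hairpins were divided, 4 negative and 4 positive. MSH6.928 had 64.1, 34.2 and 58.6 CPM without drug and 79.1, 207 and 113 CPM under AZA. All its AZA libraries were higher (1.19 ± 0.73, edgeR adjusted p = 0.963), and the fold change was 0.71 without AZA replicate 2. MSH6.1027, the lowest, had 166, 9.54 and 35.1 CPM without drug and 37.0, 21.1 and 104 CPM under AZA (-0.51 ± 1.13), with pairs in both directions.

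MLH3 (GRCh38 chr14:75013769-75051532, minus strand), a MutL subunit with endonuclease activity that also acts in meiotic crossing over, had the largest gene difference of the 10. The level was 6.82, 6.43 and 4.70 log2 CPM without drug and 7.10, 6.91 and 6.95 log2 CPM under AZA, a difference of 1.00 ± 0.50 (limma, 95% interval -0.14 to 2.14, adjusted p = 0.390). Some of its hairpins were nearly absent from single untreated libraries. MLH3.3678 had 221, 0.499 and 0.204 CPM without drug, where the last 2 are 9 and 4 counts, and 128, 60.8 and 89.6 CPM under AZA. MLH3.644 had 64.3, 38.6 and 0.560 CPM without drug, the last being 11 counts, and 32.2, 34.2 and 59.9 CPM under AZA. Both were above their AZA levels in untreated replicate 1, and their edgeR fold changes, which compare group means of normalised counts, were 0.20 ± 1.67 and 0.13 ± 1.42. With the replicate block MLH3.3678 had 5.78 (edgeR adjusted p = 0.806).

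The edgeR fold changes of MLH3 had the smallest SD of the 10 genes, 0.16 ± 0.31 (mean ± SD over 8 hairpins), from -0.34 at MLH3.2715 to 0.65 at MLH3.3298. Replicate pairs of single hairpins were far less alike, with log2 ratios of -0.92, 6.48 and 8.03 in pairs 1, 2 and 3 for MLH3.3678. MLH3.2715 had 329.9, 363 and 192 CPM without drug and 278, 243 and 262 CPM under AZA, and MLH3.3298 had 52.9, 112 and 7.13 CPM and 140.3, 94.5 and 69.1 CPM. The gene difference was 0.36 without untreated replicate 3, -0.00069 with the median over hairpins and 0.081 with summed counts. None of its 8 hairpins was higher in 3 of 3 pairs.

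Hairpins against MGMT (GRCh38 chr10:129467190-129770983, plus strand), the methyltransferase that takes alkyl groups from guanine and is used up in the reaction, gave no difference that could be told from the spread between libraries. The gene level was 5.13, 6.37 and 6.55 log2 CPM without drug and 5.99, 6.22 and 6.58 log2 CPM under AZA, which overlapped. The difference was 0.25 ± 0.40 (limma, 95% interval -0.66 to 1.16, adjusted p = 0.813), equal within its error to the median of all genes. Of the hairpins 4 were negative and 4 positive. MGMT.442 had 41.2, 117 and 83.9 CPM without drug and 25.7, 47.6 and 79.7 CPM under AZA (-0.84 ± 0.88), lower in 3 of 3 pairs. MGMT.1210 had 34.2, 61.9 and 55.4 CPM and 102, 48.6 and 104 CPM (0.58 ± 0.83). MGMT.754 had the lowest single count of all member hairpins, and stood at 0.244, 47.6 and 27.8 CPM without drug and 9.28, 14.2 and 47.1 CPM under AZA. Its value in untreated replicate 1 is 3 counts, and without that library the MGMT difference was -0.20.

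Neither AlkB dioxygenase differed at the gene level beyond the spread between libraries. ALKBH2 acts mainly on paired DNA and ALKBH3 mainly on unpaired DNA and RNA. The ALKBH2 level was 6.61, 6.79 and 5.84 log2 CPM without drug and 6.52, 6.39 and 6.69 log2 CPM under AZA (0.12 ± 0.31, limma, 95% interval -0.59 to 0.82, adjusted p = 0.898). The ALKBH3 level was 6.25, 6.56 and 5.49 log2 CPM without drug and 6.23, 6.14 and 6.40 log2 CPM under AZA (0.15 ± 0.32, limma, 95% interval -0.58 to 0.88, adjusted p = 0.868). In both genes untreated replicate 3 was the lowest library. Without it the differences were -0.17 for ALKBH2 and -0.15 for ALKBH3, that is, on the other side of 0.

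Overlapping guides against ALKBH2 went in different directions within their errors. ALKBH2.604 had 184, 125 and 11.6 CPM without drug and 133, 143 and 116 CPM under AZA. ALKBH2.607, with a site 3 bases further on, had 24.5, 114 and 160.2 CPM and 80.0, 39.3 and 137 CPM. ALKBH2.608, 1 base further still, had 63.5, 56.9 and 2.09 CPM and 71.2, 37.7 and 140.4 CPM. Their fold changes were 0.13 ± 0.83, -0.40 ± 0.84 and 0.86 ± 1.16. In untreated replicate 3 ALKBH2.604 and ALKBH2.608 were scarce while ALKBH2.607 was at its highest, so that 3 guides to almost the same bases were not scarce together in that library.

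Of the other guides to ALKBH2, ALKBH2.109 and ALKBH2.707 had the lowest fold changes and were lower in 3 of 3 pairs after TMM scaling, although ALKBH2.109 had a log2 ratio of only -0.0053 in pair 2, which went the other way on library totals. ALKBH2.109, to the 5′ UTR, had 162, 76.0 and 237 CPM without drug and 98.5, 86.6 and 93.1 CPM under AZA (-0.93 ± 0.62). ALKBH2.707 had 245, 149 and 91.0 CPM and 94.6, 123 and 68.9 CPM (-0.92 ± 0.61). The groups overlapped for both (edgeR adjusted p = 0.983 for each). ALKBH2.233, ALKBH2.393 and ALKBH2.459, to coding sequence of exons 2, 2 and 4, had fold changes of 0.057, 0.22 and 0.00065.

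Of the overlapping guides to ALKBH3, ALKBH3.592 and ALKBH3.595 were closer to each other than ALKBH3.1218 and ALKBH3.1220. ALKBH3.592 had 144, 112 and 63.2 CPM without drug and 187, 142 and 55.3 CPM under AZA (0.11 ± 0.68). ALKBH3.595 had 76.6, 152 and 89.3 CPM and 179, 56.3 and 113 CPM (-0.041 ± 0.68). Both had fold changes near 0. ALKBH3.1218 had 33.0, 123 and 3.00 CPM without drug and 76.8, 59.1 and 144 CPM under AZA (0.63 ± 1.11). ALKBH3.1220, with 20 of 22 bases in common, had 60.6, 191 and 263 CPM and 185, 177 and 150.3 CPM (-0.18 ± 0.57). In untreated replicate 3 the former was at its lowest and the latter at its highest. The differences between overlapping guides were not tested.

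The remaining hairpins of ALKBH3 covered the range of the gene. ALKBH3.1349, the one guide to the 3′ UTR, was the lowest, with 30.3, 53.0 and 16.1 CPM without drug and 10.8, 27.8 and 15.1 CPM under AZA (-1.06 ± 1.36), and was lower in 3 of 3 pairs. ALKBH3.394, to the 5′ UTR, was the highest, with 38.2, 31.3 and 81.9 CPM and 41.7, 138 and 154 CPM (0.98 ± 0.83). ALKBH3.1165 and ALKBH3.1078, to coding exons 9 and 8, had -0.93 ± 0.84 and 0.22 ± 0.79. None passed the edgeR test (adjusted p = 0.991 to 0.997 over the 8).

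In order of the gene difference, the 10 genes ran from ERCC6 (-0.48) through ERCC6L2 (-0.26), ERCC3 (-0.13), ALKBH2 (0.12), ERCC2 (0.13), ALKBH3 (0.15), ERCC5 (0.17), MGMT (0.25) and MSH6 (0.39) to MLH3 (1.00). The step between neighbours was set beside a standard error that takes the genes as independent, although they share the same libraries. It was smaller than that error everywhere except from MSH6 to MLH3, where the step was 0.61 with a standard error of 0.56. On this approximate measure the data do not fix the order. In mean log2 CPM, ERCC6 and ERCC6L2, of the SNF2 family, were lowest and the mismatch repair genes MSH6 and MLH3 highest. MSH6 and MLH3 were also highest on library totals and with summed counts. With the median over hairpins, MGMT (0.47) was highest and MLH3 had -0.00069. Without the farthest hairpin, MGMT (0.40) was above MSH6 (0.29). ERCC6L, a SNF2 relative among the related genes below, was at 0.55 ± 0.29 (limma adjusted p = 0.396). In 3 of 3 pairs, after TMM scaling, ERCC6 and ERCC6L2 had lower and MSH6 and MLH3 higher gene levels under AZA. The share of all genes that kept one direction in 3 of 3 pairs was not counted, so this cannot be called particular to these genes. Of all genes, 70.3% had a positive gene difference. The sign depended on how hairpins were summarised for several of the 10 genes, as the plot of 5 settings shows. The median of all genes also moved with the setting, from 0.25 to 0.41 on library totals, 0.024 with the median over hairpins, 0.16 without the farthest hairpin and -0.16 with summed counts. ERCC6 and ERCC6L2 were below that median under all 5. Centring each library on its median gene was chosen after the data were seen. With it ERCC6 had -0.70, ERCC6L2 -0.49, ERCC3 -0.36, MGMT 0.020, MSH6 0.17 and MLH3 0.77. The other members changed sign with centring, and none was called.

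**Figure D4:**
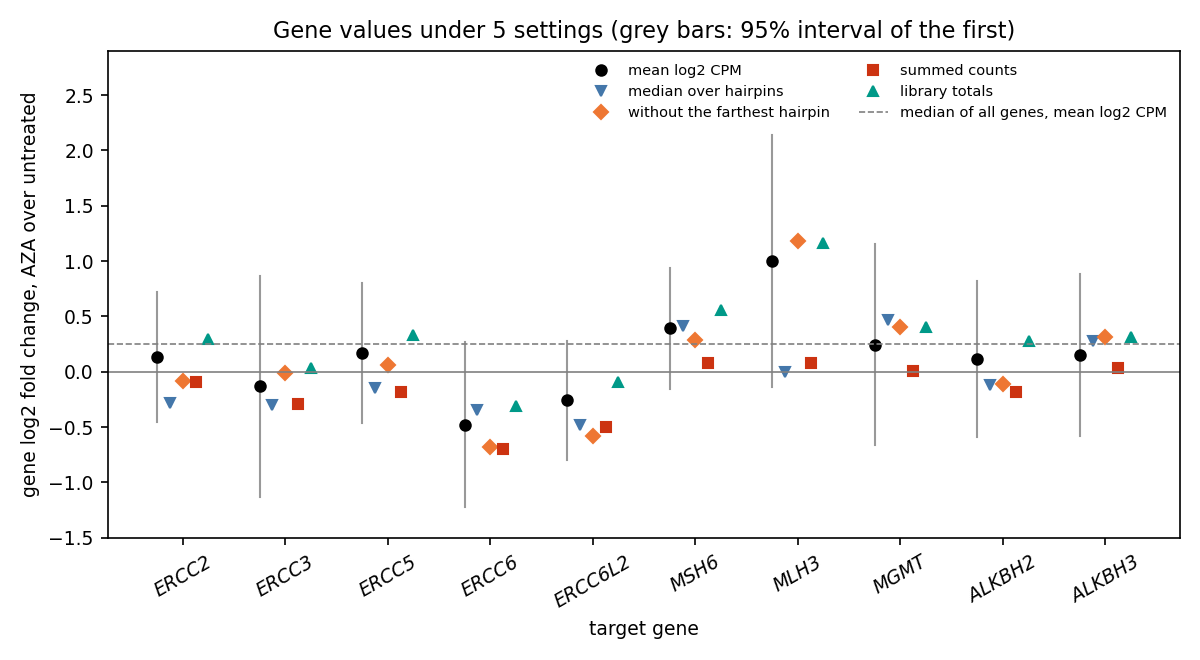
Gene log2 fold change, AZA over untreated, for the 10 genes under 5 settings: mean log2 CPM with its 95% interval (black, grey bar), median over hairpins, mean without the farthest hairpin, summed counts, and mean log2 CPM on library totals. ERCC6 and ERCC6L2 were below 0 under all 5 and MSH6, MGMT and ALKBH3 above 0 under all 5, whereas MLH3 moved from 1.18 to -0.00069. The dashed line is the median of all genes for mean log2 CPM (0.25).

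Another 12 genes of the pool act in these or other DNA repair pathways or are relatives of the members. They are GTF2H1 of TFIIH, the damage sensor subunit DDB1, the single-strand binding subunits RPA1 and RPA3, the glycosylases TDG and MBD4, the strand-break sensors PARP1 and PARP2, the flap nuclease FEN1, ASCC3, which unwinds DNA for ALKBH3, the tRNA-modifying ALKBH8 and the SNF2 relative ERCC6L. Of these 7 had positive and 5 negative gene differences, with a median of 0.091 beside 0.25 over all genes, and 0 of 12 passed the limma test (lowest adjusted p = 0.197). DDB1 was the highest at 2.29 ± 0.69, with positive fold changes in 8 of 8 hairpins, of which 1 was higher in 3 of 3 pairs. Its levels were 2.94, 2.40 and 5.43 log2 CPM without drug and 5.63, 5.78 and 6.23 log2 CPM under AZA. All AZA libraries were thus above all untreated ones, with a wide spread without drug, and the share of all genes with such a separation was not counted. It was among the 20 genes of the pool that passed with the replicate block (limma adjusted p = 0.0353). The other gene with an unadjusted p under 0.05 was PARP1, at 0.63 ± 0.25 (adjusted p = 0.299). RPA3 was the lowest at -0.53 ± 0.33 (adjusted p = 0.465). ASCC3, the partner of ALKBH3, had -0.28 ± 0.32, and ERCC6L, the relative of ERCC6, had 0.55 ± 0.29.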

How the data were processed

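The authors amplified the guide strands from genomic DNA by PCR, sequenced them and deposited raw counts, in a file for each of the 6 libraries. Each file lists hairpins with at least 1 count, and others were set to 0. CASAVA 1.9 and GRCh37 are named in the notes of the submitters. The matching program was not given in the sources used here. There are no molecular identifiers, so PCR duplicates stay in the counts. Groups and replicate numbers come from sample titles.

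The 7262 hairpins that exceeded 0.5 CPM in 3 or more libraries were scaled by TMM and tested with edgeR 4.0.16 (quasi-likelihood, treatment as the only term). Gene values, the mean log2 CPM (prior count 2) over a gene's hairpins, were tested with limma 3.58.1 in R 4.3.3. This gene test replaced the gene set test of the study. P-values were adjusted by Benjamini-Hochberg over all hairpins or genes, with 0.05 as the threshold, and DESeq2 1.42.0 was an alternative. Replicate numbers pair the samples, since each culture was divided into both groups, and deviations from group means correlated at 0.129, 0.114 and 0.140 between libraries of one number and at -0.0984 to -0.0251 between others. Within a group, chi-square values per degree of freedom were 438 to 906, so no library was a duplicate. A floor of 3 counts is 0.133 to 0.244 CPM, for counting error only.

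Guides of ALKBH2 and ALKBH3 were read from the study's library table and matched to GENCODE release 44 transcripts on GRCh38. The files hold no coordinates. Guides of the other 8 genes are not used here. Members, lists and tests were chosen with earlier results of these data known. All 10 members were named, with hairpins at an unadjusted p under 0.05, the lowest and highest of each gene and all of ALKBH2 and ALKBH3. The others named (ERCC5.2719, ERCC5.3652, MSH6.2740, MSH6.3220, ERCC6.1952, ERCC6L2.1697, ERCC6L2.3977, MLH3.3678, MLH3.644 and MGMT.754) were chosen after their values were seen. Of the 12 related genes, values are given for the lowest, the highest, those at an unadjusted p under 0.05 and, after their values were seen, ASCC3 and ERCC6L.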

Additional observations from a re-analysis of the deposited data

How the results depend on the processing

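No member hairpin and no member gene was called by edgeR, limma or DESeq2 under any alternative run: other scalings, filters, tests, prior count, gene summaries, the replicate block, centring on the median gene (chosen after seeing the data) and each library left out in turn, so that the counts of called members ranged from 0 to 0 in the leave-one-out refits. The replicate block changed no call of a member (MLH3 limma adjusted p = 0.257, the lowest of the 10). It raised the genes called in the pool from 11 to 20, as did library totals; without untreated replicate 1 or 3 these were 25 and 23, and without any one AZA library 0. Hairpins called in the pool were 5 in the main edgeR test, 13 by the exact test and 135 by DESeq2. On library totals the member hairpins of one direction in 3 of 3 pairs were 6 lower and 9 higher, in place of 10 and 3. Gene differences that changed sign were uncalled on both sides. These were, on library totals, ERCC3 (0.033); with the median over hairpins, ERCC2 (-0.29), ERCC5 (-0.15), MLH3 (-0.00069) and ALKBH2 (-0.12); with summed counts, ERCC2 (-0.093), ERCC5 (-0.19) and ALKBH2 (-0.18); without the farthest hairpin, ERCC2 (-0.083) and ALKBH2 (-0.11); with centring, ERCC2 (-0.094), ERCC5 (-0.054), ALKBH2 (-0.11) and ALKBH3 (-0.074). Leaving out 1 library changed the sign of ERCC3 (-0.54 to 0.22 over the refits), MGMT (-0.20 to 0.51), ALKBH2 (-0.17 to 0.31) and ALKBH3 (-0.15 to 0.38). The cause was not tested. There were 3 cultures, each divided into both groups. The main p-values rest on the spread between libraries within a group and leave the pairing out, which the replicate block takes in. Intervals on gene differences are wide.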
